A study of Mus musculus with 2 samples.

Results

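Clim cofactors and the LIM-domain proteins they bind were examined as genes that can themselves carry called regions. The windows of 5 mouse genes were taken in mm9 coordinates: Ldb1, Ldb2, Lmo4, Lhx2 and Lmx1b. A region belonged to a window when its midpoint lay inside it. This gave 64 regions of the 68211 in both lists, 25 of 25592 in sample 1 and 39 of 42619 in sample 2.

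The data came from chromatin immunoprecipitation followed by sequencing on corneal epithelium of K14 DN-Clim mice at postnatal day 7. DN-Clim is a Myc-tagged dominant-negative Clim expressed from the keratin 14 promoter, which is active in basal epithelial cells, and the antibody recognised the Myc tag. All samples formed 1 group of 2 replicates, and each replicate had its own deposited list of regions. Wild-type, untagged or input libraries were not analysed here, which leaves the counts without a background value, and the labels do not say whether the replicates came from separate animals. The lists hold no expression values, so the labelled tissue could not be checked against epithelial marker genes.

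Clim proteins (Ldb, Nli) act in the nucleus as cofactors and do not bind DNA themselves. They form dimers through one part of the protein and hold LIM domains through another, and so bring LIM-homeodomain and LIM-only proteins together on DNA. Ldb1 (Clim2) and Ldb2 (Clim1) encode the cofactors. Lmo4 encodes a LIM-only protein, which has LIM domains and no homeodomain and competes with other LIM proteins for Clim. Lhx2 and Lmx1b encode LIM-homeodomain transcription factors. Lhx2 is known from early eye development and from the hair follicle stem cells of the skin, and Lmx1b from the anterior segment of the eye and dorsal limb patterning.

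The lists state neither genes nor reads. Positions of exons, promoters and other features inside the windows were not analysed here, because the gene table at hand is of another build (GRCm38) and coordinates were not converted. That table matched all 5 genes and served for names and gene order only. A region in a window may lie in or beside another gene than the one the window is named for. In counts and positions below, a gene name stands for its window. In that table the nearest protein-coding neighbours are Hps6 and Pprc1 for Ldb1, Tapt1 and Qdpr for Ldb2, 4930519L02Rik and Hs2st1 for Lmo4, Dennd1a and Nek6 for Lhx2, and Zbtb43 and Mvb12b for Lmx1b. No sequence of a region is shown, since no genome of the build of the lists was used here.

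Regions of the 2 lists that had at least 1 bp in common were called shared. The score of a region is the authors' own deposited value and is described by its percentile, the percent of the same list scoring at or below it. The median score was 167.85 over the whole sample 1 list and 82.14 over the whole sample 2 list. The depth behind a region is unknown, because the lists carry no read totals, and intervals given here hold for counting error alone.

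All 5 windows held at least 1 shared region, and together they held 19. Of the 25 sample 1 regions, 19 were shared (76.0%, exact 95% interval 54.9 to 90.6%), against 80.4% of the whole list. Of the 39 sample 2 regions, 19 were shared (48.7%, exact 95% interval 32.4 to 65.2%), against 48.4% of the whole list. Both shares were therefore within counting error of the series as a whole. Each shared region joined exactly 1 region of each list. This left 6 sample 1 regions and 20 sample 2 regions without a partner.

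**Figure D1:**
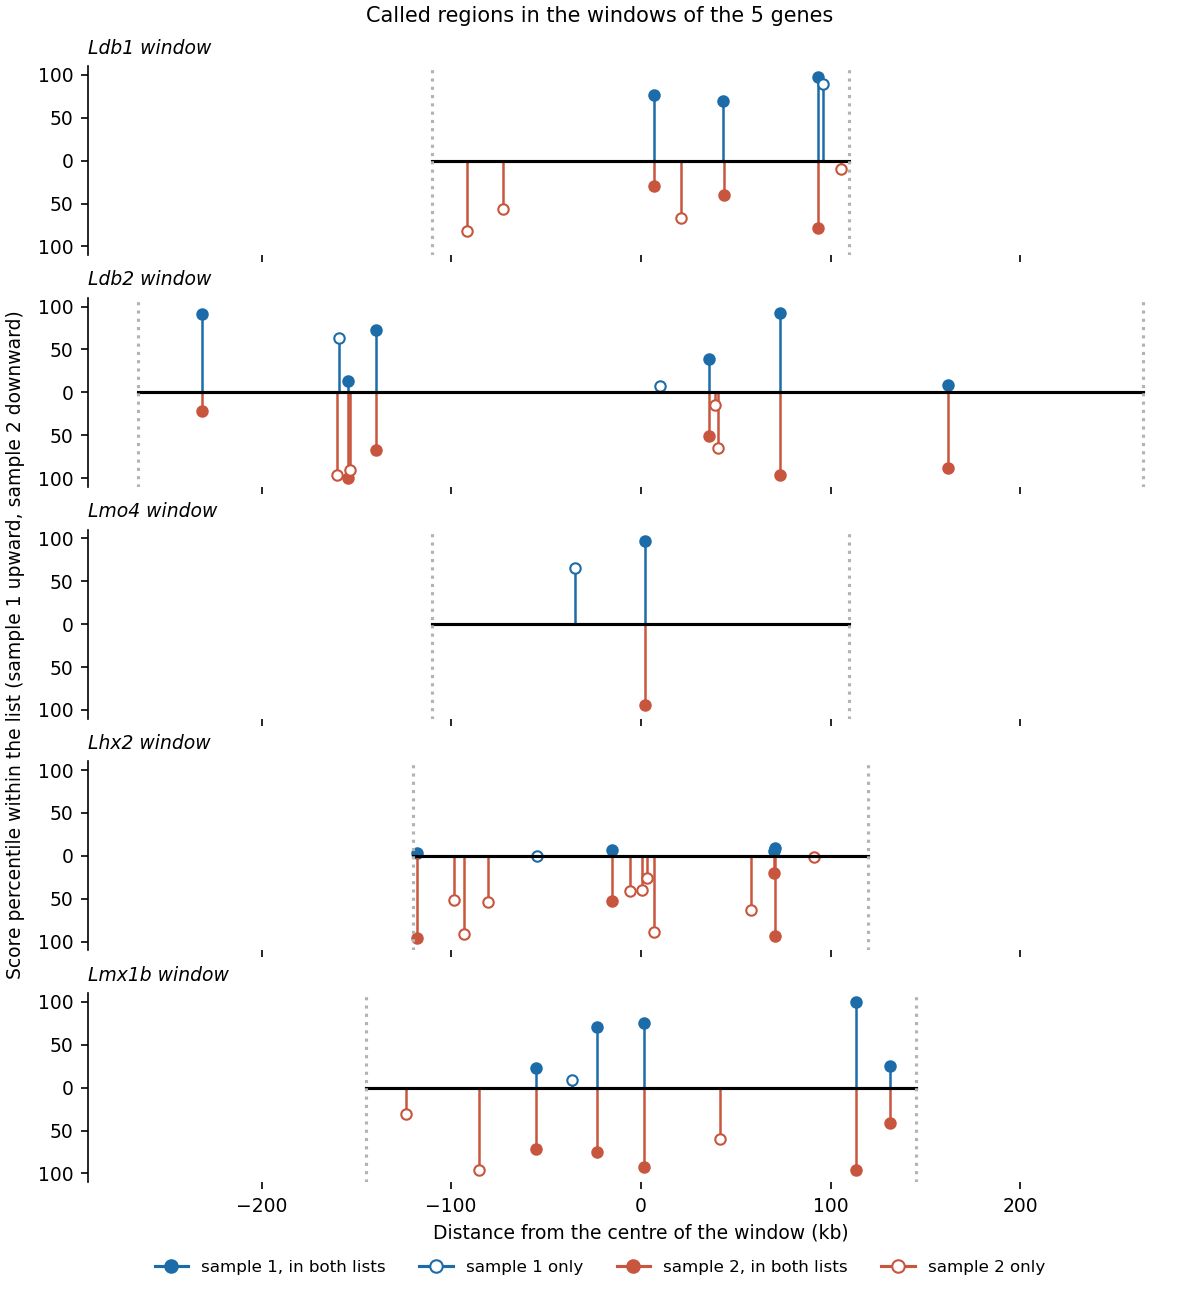
Each row is the window of 1 gene, with the distance from the window's centre in kb on the horizontal axis and dotted lines at the window ends. Stems give the score percentile of each region within its list, sample 1 upward and sample 2 downward, with filled points for regions in both lists and open points for regions in 1 list; in the Lhx2 row the sample 1 stems end at or below percentile 8.63.

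The Ldb1 window, from 46000000 to 46220000 on chromosome 19, held 4 regions in sample 1 and 7 in sample 2, of which 3 were shared. All 3 shared regions ranked higher in sample 1 than in sample 2. The region from 46116748 to 46116925 scored 231.20 in sample 1 (percentile 77.1) and 65.15 in sample 2 (percentile 29.6). The next, from 46153508 to 46153640, scored 207.04 (percentile 69.0) and 72.87 (percentile 39.9). The third, from 46203302 to 46203433, was the strongest shared region in this window, with scores of 422.15 (percentile 98.0) and 117.97 (percentile 78.6). Its end fell at the same base in both lists. In sample 2, the third alone of these stood above the median of the list.

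Near the third region lay a sample 1 region without a partner, from 46206020 to 46206097, with a score of 293.72 (percentile 89.6) and 2586 bp from the nearest sample 2 region. The 4 regions found only in sample 2 ranged from percentile 9.33 to 82.1. The highest of them, from 46018184 to 46018259, scored 125.15 and lay 68273 bp from any sample 1 region. All sample 1 regions of the window lay at or above position 46116748, so the part below that position was occupied by 2 sample 2 regions only. The longest stretch without a region in either list was 79.6 kb, from 46037144 to 46116747.

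The Ldb2 window, the longest with 530 kb (44760000 to 45290000 on chromosome 5), held 8 regions in sample 1, 10 in sample 2 and 6 shared ones. For 3 of the 6, the sample 2 percentile minus the sample 1 percentile was -70.5, 86.6 and 79.4, so 2 ranked higher in sample 2 and 1 in sample 1. Over all pairs of the series the median absolute difference was 26.1. The share of all pairs that differ as much as these 3 was not computed. Such differences were not particular to Ldb2, as Lhx2 had shared regions with differences of 91.5 and 85.2. The region from 44793500 to 44793662 scored 311.52 in sample 1 (percentile 91.8) and 59.46 in sample 2 (percentile 21.3). The opposite held for the region from 44870259 to 44870503, with 95.51 in sample 1 (percentile 13.3) and 427.22 in sample 2 (percentile 99.9), the highest sample 2 score in any of the 5 windows. The region from 45186860 to 45187036 also ranked low in sample 1, with a score of 86.56 (percentile 8.68), and high in sample 2, with 142.10 (percentile 88.0).

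The other 3 shared regions of Ldb2 had similar ranks in both lists. The one from 45098097 to 45098213 was high in both, with 325.10 in sample 1 (percentile 93.1) and 193.31 in sample 2 (percentile 96.7). The one from 44885139 to 44885214 scored 216.52 (percentile 72.5) and 100.40 (percentile 66.7). The one from 45060764 to 45060870 scored 150.24 (percentile 39.1) and 82.61 (percentile 50.5), and both lists started it at the same base.

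Of the sites at Ldb2, some lay close together. Within 6984 bp, from 44864619 to 44871602, lay 4 sites: the shared region with the highest sample 2 score, 1 sample 1 region and 2 sample 2 regions. The sample 1 region without a partner, from 44865936 to 44866006, scored 192.37 (percentile 63.0), and the sample 2 region from 44864619 to 44864763 scored 184.99 (percentile 96.0). These were 1172 bp apart, so each replicate had a call at this place without an overlap of the calls. The other sample 2 region of the group, from 44871407 to 44871602, scored 152.37 (percentile 90.9) and lay 950 bp from the nearest sample 1 region. A second group, from 45060764 to 45065598, joined a shared region with 2 sample 2 regions at percentiles 15.2 and 64.4. Between the groups, 149.8 kb from 44885215 to 45035025 held no region of either list. The remaining sample 1 region without a partner had a score of 83.61 (percentile 7.06).

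The Lmo4 window, from 143750000 to 143970000 on chromosome 3, was the sparsest, with 2 regions in sample 1 and 1 in sample 2. Its shared region, from 143862227 to 143862332, was high in both replicates. It scored 394.98 in sample 1 (percentile 97.2) and 168.10 in sample 2 (percentile 94.0), and the lists gave it the same end. The other sample 1 region, from 143825063 to 143825168, scored 198.16 (percentile 65.9), with the nearest sample 2 region 37058 bp away. From 143862333 to the upper end of the window, 107.7 kb held no region. The counts of shared and sample 1 regions, 1 and 2, equalled the medians of autosomal pieces of 220 kb, while the sample 2 count of 1 compared with a median of 3.

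The Lhx2 window, from 38090000 to 38330000 on chromosome 2, held 5 regions in sample 1 and 13 in sample 2, with 4 shared. Every sample 1 region there was weak. The 5 scores ran from 70.37 to 86.42, with a median of 81.45, and all stood at or below percentile 8.63 of a list whose lowest score is 70.03. They were also wide, from 135 to 215 bp, against a median of 83 bp and an upper quartile of 141 bp over the list.

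The sample 2 ranks of the 4 shared Lhx2 regions were all higher than the sample 1 ranks. The region from 38091853 to 38091996 scored 78.00 in sample 1 (percentile 3.88) and 179.83 in sample 2 (percentile 95.4). The region from 38194653 to 38194957, the widest shared one at 305 bp, scored 83.43 (percentile 6.94) and 84.45 (percentile 53.1), and its start was at the same base in both lists. A close pair followed, with 450 bp between its members. Its first member, from 38279882 to 38280048, was low in both lists, at 81.45 (percentile 5.95) and 58.65 (percentile 19.9). Its second member, from 38280499 to 38280690, scored 86.42 (percentile 8.63) and 167.92 (percentile 93.8). This pair was the only instance of neighbouring shared regions under 5 kb apart in the 5 windows, 1 of 14 neighbour distances (7.14%), beside 7.14% over chromosomes 1 to 19 and X.

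The 9 regions found only in sample 2 made Lhx2 the window with the largest excess of that list, 2.60 sample 2 regions for each sample 1 region, beside 1.67 for the whole lists. Of these, 4 followed the shared region at 38194653 closely, so that 5 sites lay within 22406 bp, from 38194653 to 38217058, and 4 of these were in sample 2 only. Their scores were 74.17, 72.69, 62.52 and 144.15, the last at percentile 89.1. The highest of the 9, from 38116550 to 38116609, scored 153.07 (percentile 91.2) and lay 24553 bp from any sample 1 region. Of the 9, 2 scored below the lowest sample 1 score. The single region found only in sample 1, from 38155370 to 38155504, scored 70.37, percentile 0.141 of its list.

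The Lmx1b window, from 33310000 to 33600000 on chromosome 2, held 6 regions in sample 1 and 8 in sample 2, with 5 shared. It contained the shared region with the highest mean rank of all 19. This region, from 33568543 to 33568712, scored 732.20 in sample 1 (percentile 99.9) and 182.62 in sample 2 (percentile 95.8). The region from 33456540 to 33456695 was second among the shared ones of this window, with 226.09 (percentile 75.7) and 158.41 (percentile 92.3). The region from 33432022 to 33432133 scored 209.52 (percentile 70.2) and 110.97 (percentile 74.5). These 3 stood above the median of both lists.

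The remaining shared Lmx1b regions were weaker in sample 1. From 33399689 to 33399823 the scores were 116.88 (percentile 22.6) and 106.76 (percentile 71.8). From 33586401 to 33586555 they were 123.50 (percentile 25.5) and 73.82 (percentile 40.8). The sample 1 region without a partner, from 33418375 to 33418537, scored 86.73 (percentile 8.74). Of the 3 sample 2 regions without a partner, the one from 33369449 to 33369508 was high, at 181.22 (percentile 95.6), with the nearest sample 1 region 30234 bp away, and the others stood at percentiles 31.2 and 60.3.

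Across the genes, the sample 1 scores of Lhx2, at most 86.42, lay wholly below those of Ldb1, at least 207.04, and those of Lmo4, at least 198.16. The other 2 windows reached down to similar scores. The lowest sample 1 score was 86.73 at Lmx1b, just above the Lhx2 maximum, and 83.61 at Ldb2, below it. In sample 2 the ranges of Ldb1 and Lhx2 overlapped, with 53.69 to 125.15 at Ldb1 and 50.42 to 179.83 at Lhx2. The median sample 2 percentile was 56.7 at Ldb1 and 53.1 at Lhx2. The single sample 2 region at Lmo4, at percentile 94.0, was within the range of Lhx2. No test was made of these differences, since regions are not replicates. Median percentiles in samples 1 and 2 were 51.0 and 77.4 at Ldb2, and 47.9 and 73.2 at Lmx1b. The median sample 1 percentile at Lmo4, over 2 regions, was 81.6.

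Both scores were above their list's median in 7 of the 19 shared regions (36.8%), beside 36.1% of all 20651 overlapping pairs of the series. These were 1 region at Ldb1, 2 at Ldb2, 1 at Lmo4, 3 at Lmx1b and 0 at Lhx2. The upper 10% of both lists held 3 regions, 1 each at Ldb2, Lmo4 and Lmx1b (15.8% of the 19), beside 3.28% of all pairs. The percentile was higher in sample 1 for 7 of 19 (36.8%), beside 41.1% of all pairs. The median absolute difference between the percentiles was 19.4, beside 26.1 over all pairs. A median does not show the largest differences, sample 2 minus sample 1. These were -70.5, 86.6 and 79.4 at Ldb2, and 91.5 and 85.2 at Lhx2. The share of all pairs that differ as much was not computed.

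**Figure D2:**
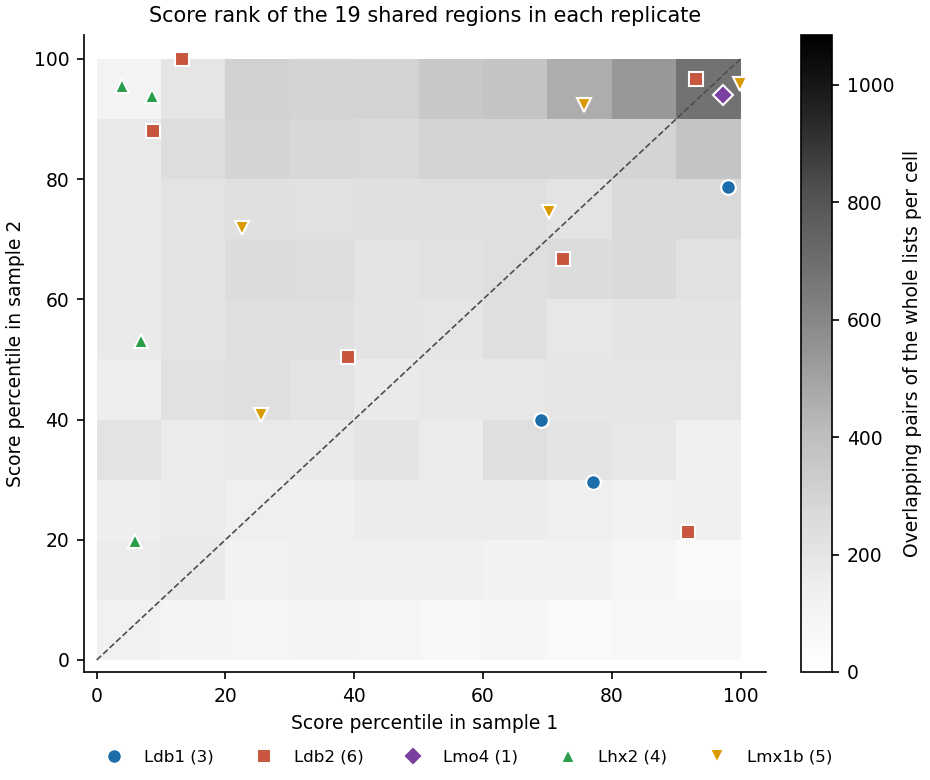
Each symbol is 1 of the 19 shared regions, placed by its score percentile in sample 1 (horizontal) and sample 2 (vertical), with the number per gene in the legend and a dashed line of equal rank. Grey cells give the number of overlapping pairs of the whole lists per decile of both; the Lhx2 symbols lie at the left edge, at sample 1 percentiles of 3.88 to 8.63, and the Ldb1 symbols below the dashed line.

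Of all regions in the windows, 5 of 25 in sample 1 (20%) and 11 of 39 in sample 2 (28.2%) were in the upper 10% of their list, a limit that holds 10% of either list by construction. The 5 in sample 1 were all shared. Of the 11 in sample 2, 4 had no partner: 2 at Ldb2 and 1 each at Lhx2 and Lmx1b. The share with a partner among the upper 10% of the whole lists was not computed, so these counts have no list value beside them. Over the whole lists, shared regions ranked higher than those without a partner. Their median percentiles were 53.9 against 38.8 in sample 1 and 62.8 against 37.8 in sample 2. At the low end of sample 2, a score below the lowest sample 1 score was held by 8 of 39 (20.5%), beside 36.8% of the list, and by 5 of the 20 without a partner (25%), beside 49% of such regions in the list. These counts take a score to mean the same in both lists, which is not known, and the shares were not tested.

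The density of shared regions was set against that of chromosomes 1 to 19 and X, whose 20550 shared regions average 0.798 per 100 kb. A density ratio above 1 means more shared regions per length than this average. Over the 5 windows together the ratio was 1.59 (exact 95% interval 0.956 to 2.48). By gene the order was Lmx1b with 2.16 (0.701 to 5.04), Lhx2 with 2.09 (0.569 to 5.35), Ldb1 with 1.71 (0.352 to 4.99), Ldb2 with 1.42 (0.521 to 3.09) and Lmo4 with 0.569 (0.0144 to 3.17). All intervals held 1, and each overlapped that of the next gene in the order. At these counts of shared regions, neither a departure from the average nor the order of the genes was detectable. This covers shared regions only. Over the 5 windows the ratio was 1.68 with sample 1 alone and 1.57 with sample 2 alone, and no interval was computed for ratios of single lists.

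The autosomes were also divided into pieces as long as each window. At least as many shared regions as in the window were found in 16.8% of the pieces as long as the Lmx1b window, 18.7% for Lhx2, 27.8% for Ldb1, 32.1% for Ldb2 and 72.2% for Lmo4. In the sample 2 list alone, the 13 regions of Lhx2 were reached by 185 of 10042 pieces of 240 kb (1.84%), whose median was 3. This was the lowest share of any window by any of the counts. The pieces describe the genome and were not used as a test. The share for the other windows in the sample 2 list ran from 15.5% at Ldb1 to 91.8% at Lmo4. For the sample 1 list, 17.3% of the pieces reached the 5 regions of Lhx2. With sample 2 alone the density ratio at Lhx2 was 3.28, and with sample 1 alone 2.10. At Lmo4 the single region of sample 2 gave a ratio of 0.275, and the regions of sample 1 gave 0.916, while both lists together gave 0.569.

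Flanks, equally long stretches on either side of each window, gave the counts of the surroundings. At Lmx1b the flanks held 6 and 5 shared regions, beside 5 in the window. At Ldb1 they held 5 (lower coordinates) and 2 (higher coordinates), beside 3. At Ldb2 they held 5 and 3, beside 6. At Lmo4 the lower flank held 1 shared region, as the window did, and the upper flank 6. At Lhx2 the lower flank held 0 shared regions and the upper flank 4, as many as the window. Only Ldb2 had more shared regions in its window than in either flank. In the sample 2 list the Lhx2 window, with 13 regions, stood above its flanks, which held 2 and 5.

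**Figure D3:**
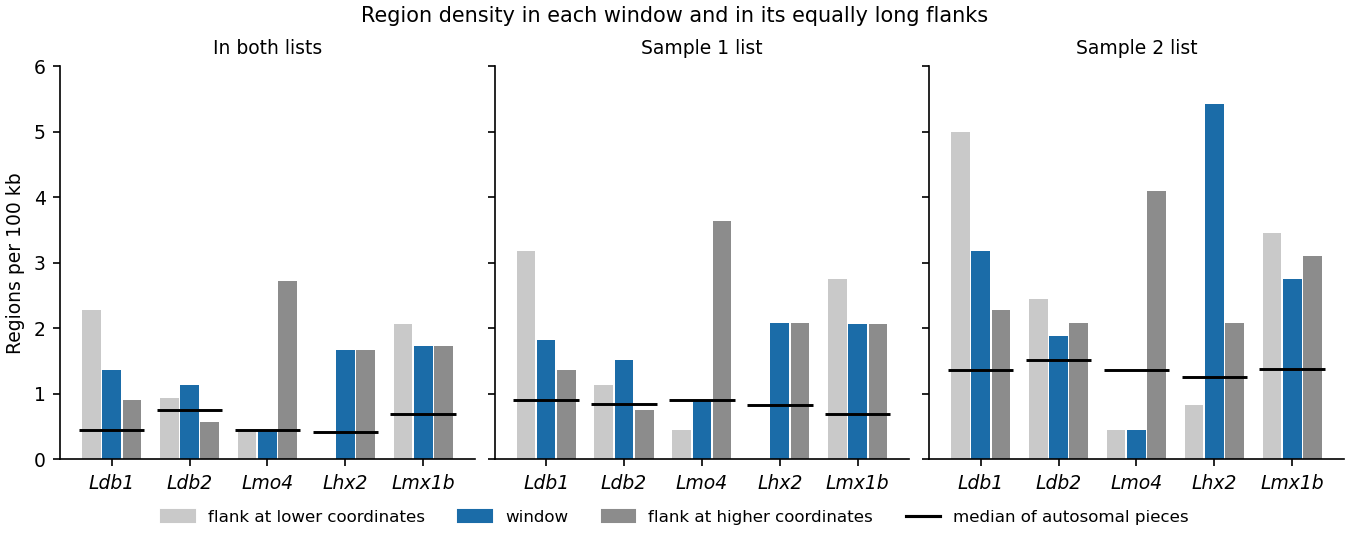
Bars give regions per 100 kb in each window (blue) and in its equally long flanks at lower and higher coordinates (light and dark grey), for regions in both lists and for each list. Black lines are the medians of equally long autosomal pieces; the Lhx2 window stands above both of its flanks in the sample 2 panel, with 5.42 regions per 100 kb, and equals its upper flank in the other panels.

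The extent of the regions was compared last. Regions were 71 to 215 bp wide in sample 1 over all members of the windows, and in sample 2 they were 56 to 305 bp wide. The median shared region was 125 bp wide in sample 1 and 132 bp in sample 2, beside 83 bp and 101 bp over all pairs. In 12 of 19 (63.2%) the sample 2 region was the wider one, beside 41.2% of all pairs. The narrower region lay wholly inside the wider in 10 of 19 (52.6%), beside 49.4% of all pairs. An overlap of at least 50% of the width in each list was reached by 15 of 19 (78.9%), beside 77.7% of all pairs. The 4 pairs that missed it were 2 of the 6 at Ldb2 and 2 of the 4 at Lhx2. Starts were at the same base in 2 of 19 (10.5%), beside 7.81% of all pairs, and ends in 3 of 19 (15.8%), beside 7.56%.

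Runs of 3 or more sites with gaps under 10 kb, a limit picked once positions had been seen, held 15 of the 45 sites in the windows (33.3%), beside 17.5% of all sites on chromosomes 1 to 19 and X. A site is a region of either list, or the merged region of both. The runs were 2 at Ldb2, 1 at Lhx2 with 5 sites, and 1 at Ldb1 with 3 sites from 46203302 to 46215799. Each run held 1 site found in both lists, and its other sites were in 1 list only. These shares were not tested.

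Width was set beside rank. The list with the narrower region gave the higher percentile in 12 of 19 (63.2%), close to 65.3% of all pairs. All 3 shared regions of Ldb1 were narrower and higher in sample 1. At Lhx2, 3 of 4 were narrower and higher in sample 2, as in the region at 38280499, which was 192 bp wide in sample 1 and 68 bp in sample 2. At Ldb2 the region at 45186860 was 177 bp wide in sample 1 and 70 bp in sample 2. The Ldb2 region with the highest sample 2 score went the other way, 150 bp wide in sample 1 and 245 bp in sample 2. The part of width in the ranks was not tested.

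**Figure D4:**
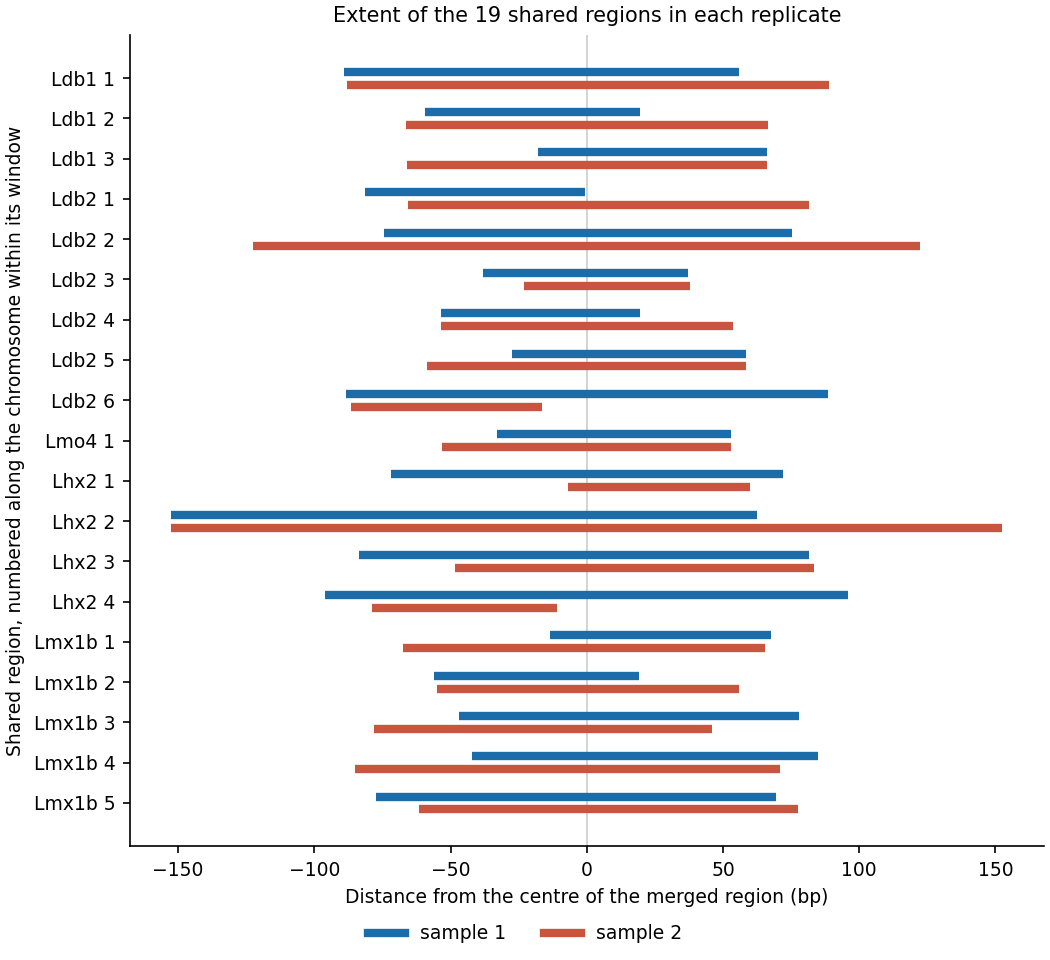
Each row is 1 of the 19 shared regions, numbered along the chromosome within its window, with the extent called in sample 1 (blue) and sample 2 (red) by distance in bp from the centre of the merged region. The replicates share a start in 2 rows and an end in 3, and the sample 2 bar is the longer one in 12 rows.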

How the data were processed

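The authors deposited 1 list of regions per replicate, without a header, with chromosome, start, end, name and a score. Per the submitters' processing notes, Bowtie 0.12.7, bedtools 2.11.2 and the mm9 build were used. Per the labels' protocols, the tissue was digested for 2 h at 37 °C before fixation, 24 µg of chromatin went into each immunoprecipitation, and single-end reads of 50 cycles from 2 lanes were combined after alignment, so replicates were not pooled. The region names carry the prefix of MACS. Its version, thresholds and control library were not given in the sources used here. As for the score, it is deposited by the authors as it is, and what it measures is not stated, so it was used mainly as a rank within a list. The exception is the limit at the lowest sample 1 score applied to sample 2, which assumes 1 scale for both lists. It may depend on depth.

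Midpoints, overlaps and merged regions were computed with pandas 2.3.3, numpy 2.4.6 and scipy 1.17.1. Coordinates count from 1. Intervals are exact (Clopper-Pearson, 95%). Density used the length spanned by the regions of either list on each chromosome. Overlaps were tested on simulated data (12000 of 12000 planted overlaps found), and bedtools 2.31.1 gave the same 20582 overlapping sample 1 regions. All shared regions of windows with up to 8 were named, and unshared ones in the upper 10% of their list or, failing that, the highest. Other unshared regions, and groups of 3 or more sites under 10 kb apart, were picked once values had been seen. The genes, windows and rules were chosen with earlier results of these data known. Other LIM pathway genes were not placed, for want of an annotation in mm9.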

Additional observations from a re-analysis of the deposited data

How the results depend on the processing

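With each list limited to the 50% of its regions with the highest scores, shared regions fell to 1 at Ldb1, 2 at Ldb2, 3 at Lmx1b and 0 at Lhx2, where the density ratio was then 0. Lmo4 kept its count of 1, the same region, but its density ratio became 1.57, above the average in place of below it. With the count unchanged, only the average it is set against had moved. The ratio of Lmx1b became 3.58, and both values lay within the intervals given above for these windows. The shared percentages under this limit were 53.8% in sample 1 and 25.9% in sample 2, beside 58.1% and 35.0% of the whole lists. These counts fall in part by construction, since each list is cut to a part. With a reciprocal overlap of at least 50%, Lhx2 had 2 shared regions (density ratio 1.34) and Ldb1, Ldb2, Lmo4 and Lmx1b stayed within 1.5 times their count; the cause was not tested. Membership by any overlap, windows shortened by 20 kb at each end, the density of the same chromosome, and sample 2 limited to the lowest sample 1 score left the counts of shared regions and the density ratios they were run for within 1.5 times or the interval. The intervals of single windows are wide, as with 0.0144 to 3.17 at Lmo4. A density ratio inside its interval therefore says little about stability. The density ratio over the 5 windows, whose alternatives were chosen after seeing the data, ran from 1.54 to 1.68. No paired analysis was possible because the series has 1 group. Depth is unknown, so a region in 1 list only may have been missed in the other.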
